A study of Mus musculus with 18 samples.

Results

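The genes described here are 32 transcripts of the integrated stress response (ISR) that is run by the transcription factor ATF4, taken by gene name from a list of known ISR genes, out of 54532 genes with an expression value in mouse liver. They comprised 7 transcription factors, 8 feedback and stress effectors, 10 genes of amino acid synthesis and 7 genes of amino acid transport and tRNA export. RNA was sequenced from whole livers of 18 male wild-type C57BL/6J mice, with 1 library per mouse. Mice went on the control diet (Ctrl) or the matched riboflavin (vitamin B2)-deficient diet (B2D) at about 1 month of age, and the diets were isocaloric with equal amino acids. Without fenofibrate, 5 Ctrl and 5 B2D mice were harvested after 1 month of diet. With fenofibrate (FF), an agonist of the nuclear receptor PPARα, 4 Ctrl+FF and 4 B2D+FF mice had 9 weeks of diet, were gavaged during weeks 7 to 9 and received the last dose 2 hours before harvest. All mice were fasted overnight, so every value is from a fasted liver. The design asked what loss of riboflavin, the precursor of the flavin cofactors FMN and FAD, did to liver transcripts without and with PPARα activation. FF, time on diet and the table of values changed together between the experiments and cannot be told apart, so diets were compared within each experiment. Mice are numbered within each group, and values for single mice are given in that order.

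In the ISR, kinases that sense amino acid shortage, protein folding stress, heme deficiency or viral RNA phosphorylate the translation initiation factor eIF2α, which lowers general protein synthesis while ribosomes reach the ATF4 coding sequence more often. ATF4 protein then dimerizes with C/EBP proteins and binds composite C/EBP-ATF elements of genes for amino acid synthesis, amino acid import and tRNA charging, and of factors such as CHOP and TRIB3 that feed back on the pathway. In liver the response is known for supplying amino acids and for the hormone FGF21. Transcript levels do not measure eIF2α phosphorylation or ATF4 translation.

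Sequences are shown for the members that were high enough to test in either experiment and whose promoter held the core of the C/EBP-ATF element, since these are the members for which the sequence can be read beside a measured diet effect. RefSeq windows from 250 bases before to 50 bases after the transcript start (GRCm38.p6) were at hand for 30 of the 32 members, and not for Eif4ebp1 and Slc7a5. The motif TGATGNAA, in which N is any base, was searched on both strands, where the other strand reads TTNCATCA. It was found in the windows of 9 of the 30 members (30%) and of 1219 of 27025 genes (4.51%). Each line gives 30 bases of the gene's strand from 5′ to 3′, with the motif in capitals.
Trib3 (chr2:152344028-152344057, minus strand, motif from base 15 after the start): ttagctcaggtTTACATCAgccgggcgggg
Atf3 (chr1:191183425-191183454, minus strand, motif from 110 bases before the start): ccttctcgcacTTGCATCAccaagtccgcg
Chac1 (chr2:119351038-119351067, plus strand, motif from 193 bases before the start): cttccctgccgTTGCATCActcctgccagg
Vldlr (chr19:27216809-27216838, plus strand, motif from 200 bases before the start): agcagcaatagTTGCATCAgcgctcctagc
Asns (chr6:7693214-7693243, minus strand, motif from 23 bases before the start): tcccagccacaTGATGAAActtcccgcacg
Slc1a4 (chr11:20332699-20332728, minus strand, motif from 4 bases before the start): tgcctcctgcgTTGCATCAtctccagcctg
The starts are those of RefSeq transcripts and can differ from the ends of the gene models whose coordinates are given below. The motifs of Atf3, Vldlr and Asns lie inside those models, and that of Trib3 lies outside. Atf3, Chac1, Vldlr and Slc1a4 shared the same 8 letters, TTGCATCA, while Trib3 and Asns carried other versions, that of Asns in the opposite orientation. Nupr1, Pycr1 and Slc7a11, which were too low to test, also held the motif. Atf4, Atf5, Sesn2, Psat1, Gpt2, Mthfd1l, Slc3a2, Stbd1 and Slc38a2 held no match, which says only that these letters are not in the window searched, and a match is not a measured binding site.

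Expression is given as FPKM, the fragments of a gene divided by its length and by the size of the library, so that levels can be compared between genes per length. Between 15320729 and 21898502 reads fell on genes in each library. Diet effects were tested by limma on log2(FPKM + 1) for genes with a mean of at least 0.5 FPKM in the libraries compared, with Benjamini-Hochberg adjustment over all genes tested and a threshold of 0.05. All log2 fold changes are on this scale, which understates changes of genes with low values. In whole liver, fewer cells of a type and less RNA per cell cannot be told apart. Of 7 hepatocyte markers found, all were tested in both experiments, and none passed the threshold. Their summed level was 40010 to 53022 FPKM in Ctrl, 38229 to 52985 in B2D, 24085 to 28347 in Ctrl+FF and 20865 to 24557 in B2D+FF. With FF, 4 of the 7 had an unadjusted p under 0.05, and in Alb, Ttr and Serpina3k every B2D+FF mouse was below every Ctrl+FF mouse. The remaining 4 markers had log2 fold changes above 0, none of them with separated groups. The median log2 fold change of the 7 was 0.0091, so the list did not move in 1 direction. Other lists with a gene past the threshold were Kupffer and macrophage markers (Clec4f lower in B2D, 1 of 7), endothelial markers (Lyve1 higher in B2D+FF, 1 of 5), adipocyte markers (Cidec higher in B2D+FF, while the defining marker Adipoq was at 6.19 FPKM in B2D 2, 2.47 in Ctrl+FF 1 and 0.413 or less in the other 16 mice) and erythroid markers (Alas2 lower in both, 1 of 3). Lyve1 was the only endothelial marker above 0 with FF, and the other 4 lay below 0. No stellate, cholangiocyte, lymphocyte or neutrophil, or pancreas marker passed in either experiment, and the 9 pancreas markers summed to between 1.77 and 7.44 FPKM in every library. The part of these cell types in the results below was not tested.

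Without FF, 2 members passed the threshold in B2D against Ctrl, the transcription factor Atf5 and the stress sensor Sesn2, both higher. None passed lower. Of all 11574 genes tested, 2.70% passed, 0.769% higher and 1.94% lower. With FF, 7 members passed in B2D+FF against Ctrl+FF. Trib3, Stbd1, Psat1, Mthfd1l, Gpt2 and Slc3a2 were higher and Slc1a4 was lower, while 4.45% of 11878 genes passed, 2.24% higher and 2.21% lower. Of these members, Psat1 reached the filter only through its higher B2D+FF level. No member passed in both experiments.

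**Figure D1:**
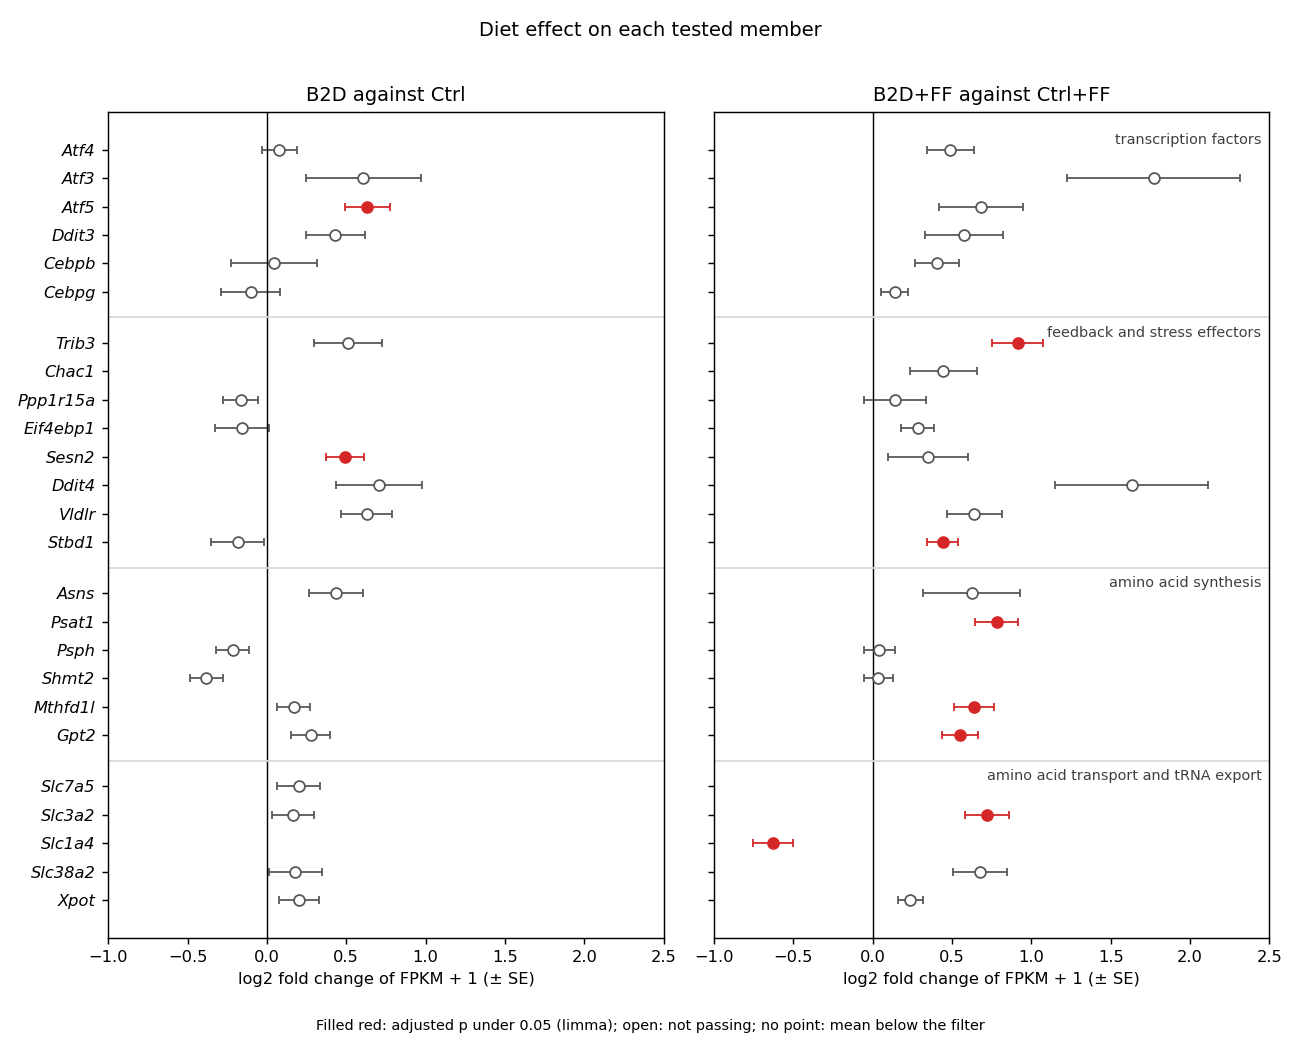
Log2 fold change of FPKM + 1 between the diets for each tested member, with its standard error, without FF (left) and with FF (right), ordered by role. Filled points passed an adjusted p of 0.05, and members without a point had a mean below 0.5 FPKM in that experiment. Most points lie right of 0 in the right panel, where Slc1a4 at -0.63 is the exception, and both sides of 0 are occupied in the left panel.

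Without FF, 22 members were high enough to test, of which 16 lay above 0 and 6 below, with a median log2 fold change of 0.19 beside -0.0013 over all genes tested. In 3 members every B2D mouse was above every Ctrl mouse and in 1 every B2D mouse was below, against 2.08% and 2.89% of all genes and 4.98% in either direction. With FF, 24 members were tested, of which 23 lay above 0 and 1 below, with a median of 0.52 beside 0.013 over all genes. The groups were separated upward in 11 members and downward in 1, against 7.82% and 6.44% of all genes and 14.3% in either direction. These counts and medians describe the members that were tested and are not tests of the list. Asns, Mthfd1l and Vldlr without FF, and Atf3 and Psat1 with FF, passed the filter only through their higher B2D level. The study also named Atf4, Psat1, Gpt2 and Ddit4 as ISR genes from these samples, so that their direction with FF is not independent of that choice.

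The count of members that passed rested on single mice in both experiments. Without FF, leaving out 1 mouse at a time left 2 members passing without Ctrl 5 (Atf5 and Vldlr) and 1 or 0 without any other mouse. With FF, 0 members passed without Ctrl+FF 1, 1 passed without Ctrl+FF 2 (Trib3), 1 without Ctrl+FF 3 (Psat1) and 3 without B2D+FF 4, while 6 to 8 passed without any of the other 4 mice. The direction of the 9 members that passed held in each of these fits.

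Members were also counted mouse by mouse. The counts include Atf3 and Psat1 with FF, and Asns, Mthfd1l and Vldlr without FF, which passed the filter only through their higher B2D level. Each control mouse is part of the mean it is set against, and B2D mice are not, so the diets are not measured alike. The counts and medians therefore describe the tested members and are not tests of the list. Among the 24 members tested with FF, 23, 19, 22 and 21 were above the Ctrl+FF mean in the 4 B2D+FF mice, with median log2 differences of 0.40, 0.38, 0.44 and 0.64. In the Ctrl+FF mice the medians lay between -0.051 and 0.098. Without FF, 18, 16, 14, 15 and 11 of 22 members were above the Ctrl mean in the 5 B2D mice, with medians of 0.23, 0.13, 0.22, 0.16 and 0.010. The Ctrl medians lay between -0.076 and 0.046, so that B2D 5 fell within the Ctrl range and the other 4 B2D mice above it.

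**Figure D2:**
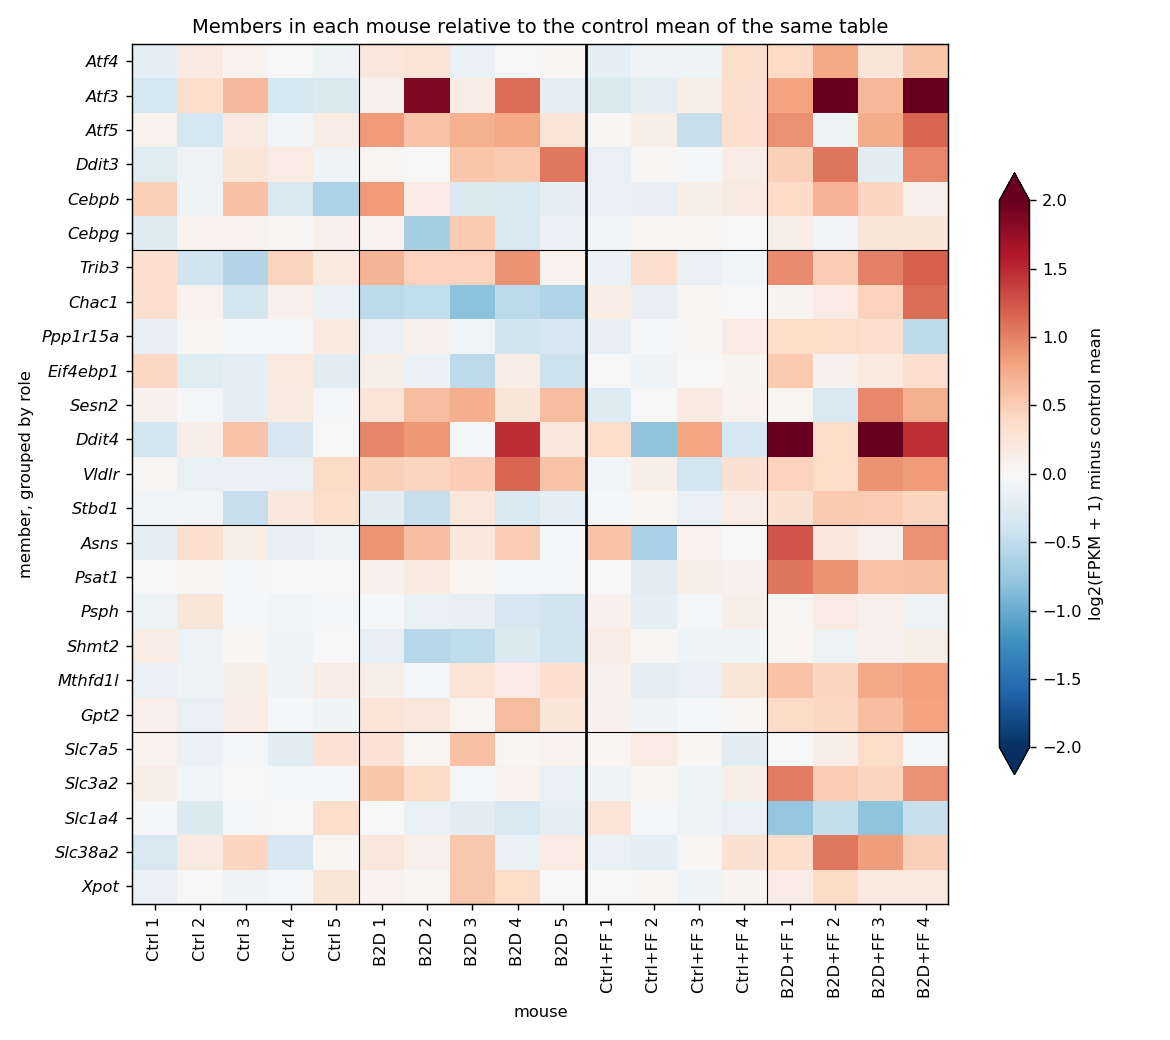
Difference of log2(FPKM + 1) from the control mean of the same experiment for the 25 members tested in at least 1 experiment (rows, by role) in each of the 18 mice (columns). Red is above and blue below the control mean, colours end at 2 on either side, and the thick line separates the experiments. The B2D+FF columns are red in most rows apart from Slc1a4, and the B2D columns are mixed, with Chac1, Shmt2 and Psph blue in all 5 mice.

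Among the transcription factors, Atf5 passed without FF and no factor passed with FF. Their summed level was 224 to 314 FPKM in Ctrl, 282 to 440 in B2D, 153 to 198 in Ctrl+FF and 237 to 272 in B2D+FF. The B2D+FF mice were therefore above every Ctrl+FF mouse, while B2D and Ctrl overlapped. Atf5 and Cebpb made up most of this sum, and with FF each of them overlapped between the diets. With FF, 5 of the 6 tested factors had an unadjusted p under 0.05, as did 21.2% of all genes, and without FF 2 of 6 did, as did 18.4% of all genes.

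Atf4 (ENSMUSG00000042406, chr15:80255184-80257541), the factor at the head of the response, was at 24.4, 31.9, 29.5, 28.0 and 26.4 FPKM in Ctrl and at 32.9, 33.8, 25.4, 28.1 and 28.4 in B2D. It was at 19.9, 21.5, 21.4 and 29.2 FPKM in Ctrl+FF and at 30.2, 39.3, 27.1 and 34.1 in B2D+FF. The diets overlapped in both experiments, with FF only because Ctrl+FF 4 lay above B2D+FF 3. The log2 fold change was 0.08 ± 0.11 (SE, adjusted p = 0.743) without FF and 0.49 ± 0.15 (adjusted p = 0.0935) with FF. Without Ctrl+FF 4 the latter was 0.61 with an adjusted p of 0.0463.

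Atf5 (ENSMUSG00000038539, chr7:44812256-44816658), a related factor translated in a similar way to ATF4, had the highest mean of the 7 factors in Ctrl, B2D and B2D+FF but lay below Cebpb in Ctrl+FF. Its level was 159.8, 118, 172, 146 and 168 FPKM in Ctrl and 274, 225, 249, 259 and 182 in B2D, a ratio of means of 1.56. Every B2D mouse was above every Ctrl mouse, and the log2 fold change was 0.63 ± 0.14 (SE, adjusted p = 0.0378). The call was lost without any 1 of Ctrl 1, 2 or 4 or B2D 1, 2, 3 or 4, with adjusted p between 0.0658 and 0.106 and a log2 fold change of at least 0.54. With FF, Atf5 was at 64.9, 68.6, 46.0 and 79.1 FPKM in Ctrl+FF and at 120.2, 59.2, 107 and 144 in B2D+FF. B2D+FF 2 lay inside the Ctrl+FF range and the other 3 above it, with a log2 fold change of 0.68 ± 0.27 (SE, adjusted p = 0.181) that rose to 0.94 (adjusted p = 0.0317) without that mouse.

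Atf3 (ENSMUSG00000026628, chr1:191170296-191218039), a stress-inducible repressor that ATF4 activates, was at 0.0566, 0.141, 0.401 and 0.630 FPKM in Ctrl+FF and at 1.25, 13.4, 1.03 and 4.67 in B2D+FF. The groups did not overlap (exact two-sided permutation p = 0.0286, the smallest that 4 against 4 mice allow), but the 4 B2D+FF mice spread over more than a factor of 10, and the log2 fold change of 1.77 ± 0.55 (SE) did not pass (adjusted p = 0.101). Without FF, Atf3 was at 0.183 to 1.37 FPKM in Ctrl and 0.317 to 4.51 in B2D, which overlapped (log2 fold change 0.61 ± 0.36, adjusted p = 0.395).

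Ddit3 (ENSMUSG00000025408, chr10:127290774-127296288), which encodes CHOP, was at 1.61, 1.88, 2.63, 2.44 and 1.93 FPKM in Ctrl and at 2.16, 2.09, 3.49, 3.40 and 5.37 in B2D. With FF it was at 1.35, 1.67, 1.58 and 1.89 FPKM in Ctrl+FF and at 2.64, 4.51, 1.27 and 4.07 in B2D+FF, where B2D+FF 3 was the lowest of the 8 mice. The log2 fold changes were 0.43 ± 0.19 (SE, adjusted p = 0.242) and 0.58 ± 0.25 (adjusted p = 0.219), and the latter was 0.84 (adjusted p = 0.0217) without B2D+FF 3. A second entry for Ddit3 in the annotation, 105 bases long, had no reads and was not used.

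The C/EBP partners of ATF4 passed in neither experiment. Cebpb ranged from 41.4 to 97.7 FPKM in Ctrl and from 52.0 to 119 in B2D, and from 61.5 to 78.7 in Ctrl+FF and 74.3 to 112 in B2D+FF, with log2 fold changes of 0.04 (adjusted p = 0.947) and 0.40 (adjusted p = 0.136). Cebpg had log2 fold changes of -0.10 (adjusted p = 0.802) and 0.14 (adjusted p = 0.393). Nupr1, a small stress-induced chromatin protein, was below the filter, at 0.0227 to 0.563 FPKM over all 18 mice. Shared exon bases with a gene on the other strand, from which reads of an unstranded library cannot be told apart, made up 20.7% of Cebpb (Tmem189), 4.11% of Atf5 (Nup62 and Il4i1) and 3.97% of Ddit3 (Mars).

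**Figure D3:**
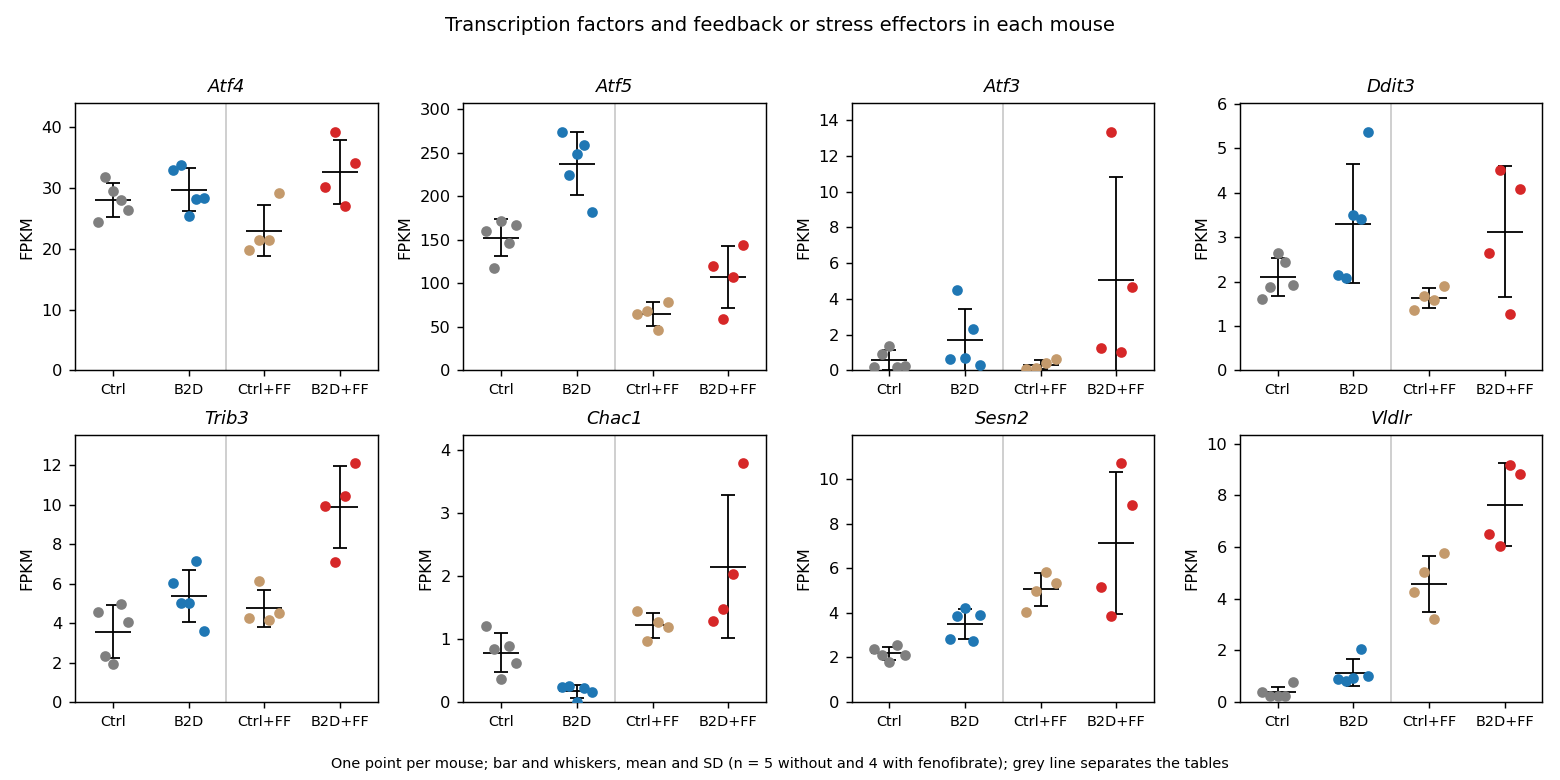
FPKM of 4 transcription factors (top) and 4 feedback or stress effectors (bottom) in each mouse, with the mean and SD of each group and with whiskers cut at 0. The grey line separates the experiments, which were normalized separately. All B2D+FF points of Atf3, Trib3 and Vldlr lie above the Ctrl+FF points, all B2D points of Atf5, Sesn2 and Vldlr lie above the Ctrl points, and all B2D points of Chac1 lie below them.

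Among the feedback and stress effectors, Sesn2 passed without FF, and Trib3 and Stbd1 passed with FF. All 8 were tested with FF and all lay above 0, with a summed level of 76.2 to 82.7 FPKM in Ctrl+FF and 100.4 to 149 in B2D+FF. Without FF, 4 of 7 lay above 0 and the summed levels overlapped, at 64.5 to 94.9 FPKM in Ctrl and 72.3 to 88.2 in B2D. Stbd1 had the highest mean of the 8 in every group, so it weighs most in these sums.

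Trib3 (ENSMUSG00000032715, chr2:152337422-152344032), a pseudokinase that binds ATF4 and CHOP and dampens their activity, was at 4.24, 6.15, 4.14 and 4.50 FPKM in Ctrl+FF and at 9.95, 7.13, 10.4 and 12.1 in B2D+FF. Every B2D+FF mouse was above every Ctrl+FF mouse, with a ratio of means of 2.08 and a log2 fold change of 0.91 ± 0.16 (SE, adjusted p = 0.0164). The call was lost without Ctrl+FF 1 (0.87, adjusted p = 0.0588) or Ctrl+FF 3 (0.86, adjusted p = 0.0519) and held in the other 6 such fits. Without FF, Trib3 was at 4.55, 2.33, 1.93, 4.96 and 4.05 FPKM in Ctrl and at 6.03, 5.02, 5.04, 7.18 and 3.61 in B2D. B2D 5 lay within the Ctrl range, and the log2 fold change of 0.51 ± 0.21 did not pass (adjusted p = 0.224).

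Chac1 (ENSMUSG00000027313, chr2:119351229-119354381), an enzyme that degrades glutathione downstream of ATF4, ATF3 and CHOP, was at 1.20, 0.843, 0.372, 0.893 and 0.613 FPKM in Ctrl and at 0.232, 0.251, 0, 0.220 and 0.161 in B2D. All 5 B2D mice were below all 5 Ctrl mice (two-sided exact permutation p = 0.0079, the smallest that 5 against 5 mice allow), with 12 to 35 reads per library in Ctrl and 0 to 7 in B2D. The mean over these 10 mice was under 0.5 FPKM, so that Chac1 was not tested in this comparison. With no filter, the fit of these mice gave a log2 fold change of -0.59 with an adjusted p of 0.0904. In a fit of all 4 groups, where it reached the filter only through the FF groups, it passed as lower in B2D (log2 fold change -0.59, adjusted p = 0.040). With FF it was at 1.45, 0.965, 1.27 and 1.19 FPKM in Ctrl+FF and at 1.29, 1.47, 2.04 and 3.79 in B2D+FF. These groups overlapped, and the log2 fold change of 0.45 ± 0.21 (SE) did not pass (adjusted p = 0.259).

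Sesn2 (ENSMUSG00000028893, chr4:132492032-132510501), a leucine-binding inhibitor of mTORC1 signalling, was at 2.36, 2.12, 1.78, 2.58 and 2.09 FPKM in Ctrl and at 2.81, 3.88, 4.23, 2.74 and 3.89 in B2D. The diets were separated, the ratio of means was 1.61, and the log2 fold change was 0.49 ± 0.12 (SE, adjusted p = 0.0480). The call was lost without any 1 mouse other than B2D 1 or B2D 4, with adjusted p between 0.0800 and 0.118. With FF, it was at 4.05, 5.0, 5.83 and 5.33 FPKM in Ctrl+FF and at 5.15, 3.88, 10.7 and 8.83 in B2D+FF, which overlapped (log2 fold change 0.35 ± 0.25, adjusted p = 0.467).

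Vldlr (ENSMUSG00000024924, chr19:27216484-27254231), a lipoprotein receptor induced by ATF4 in stressed hepatocytes, was at 0.38, 0.229, 0.247, 0.230 and 0.760 FPKM in Ctrl and at 0.890, 0.820, 0.911, 2.05 and 1.01 in B2D. It was at 4.24, 5.02, 3.21 and 5.75 FPKM in Ctrl+FF and at 6.51, 6.05, 9.17 and 8.84 in B2D+FF. The diets were separated in both experiments, with ratios of means of 3.08 and 1.68. The log2 fold changes were 0.63 ± 0.16 (SE, adjusted p = 0.0602) and 0.64 ± 0.17 (adjusted p = 0.0668), which do not pass. Because the added 1 FPKM is large beside the Ctrl values, the first of these depended on the scale. It was 1.43 (adjusted p = 0.0462) with 0.1 FPKM added and 1.69 (adjusted p = 0.0136) on recovered reads by limma voom. Vldlr reached the filter without FF only through its higher B2D level, and with no filter its adjusted p by limma was 0.160. The fold change with FF also depended on the setting. It passed under 2 of 7 alternatives, with adjusted p by limma from 0.0327 to 0.156.

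Stbd1 (ENSMUSG00000047963, chr5:92603041-92606579), a glycogen-binding protein, was at 31.7, 33.5, 29.1 and 36.3 FPKM in Ctrl+FF and at 40.3, 47.3, 46.5 and 44.3 in B2D+FF. All B2D+FF mice were above all Ctrl+FF mice, with a log2 fold change of 0.44 ± 0.10 (SE, adjusted p = 0.0355), and the call held without Ctrl+FF 4 or B2D+FF 1 and was lost without any 1 of the other 6 mice (adjusted p from 0.0622 to 0.111). It was also lost under upper quartile scaling (adjusted p = 0.0559). Without FF the fold change had the other sign, -0.18 ± 0.17 (adjusted p = 0.583), with 37.3 to 66.2 FPKM in Ctrl and 37.3 to 60.6 in B2D.

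Eif4ebp1 (ENSMUSG00000031490, chr8:27260329-27276674), an inhibitor of cap-dependent translation, was at 20.5, 19.2, 20.5 and 21.0 FPKM in Ctrl+FF and at 29.7, 21.6, 23.3 and 25.8 in B2D+FF. The 2 groups were separated, but the log2 fold change of 0.28 ± 0.10 (SE) did not pass (adjusted p = 0.154). Without FF it was 9.83 to 19.8 FPKM over both diets. Ddit4, an inhibitor of mTORC1 also known as REDD1, had the largest fold change on the log2(FPKM + 1) scale after Atf3 among tested members with FF, from 3.15 to 11.5 FPKM in Ctrl+FF and from 8.38 to 42.4 in B2D+FF. The groups overlapped and the log2 fold change of 1.63 ± 0.48 (SE) did not pass (adjusted p = 0.0896), and passed in the fit of all 4 groups (adjusted p = 0.0403). Ppp1r15a, the eIF2α phosphatase subunit GADD34, ranged from 1.94 to 4.90 FPKM over all mice and passed in neither experiment.

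Of the 10 amino acid synthesis genes, none passed without FF and 3 passed with FF, all higher. Psat1 was among the 3 and reached the filter only through its higher B2D+FF level. Their summed level was 189 to 225 FPKM in Ctrl and 192 to 277 in B2D, which overlapped, and 189 to 212 in Ctrl+FF and 238 to 302 in B2D+FF, which did not. Gpt2 alone made up most of this sum, so the other members are better read singly.

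Gpt2 (ENSMUSG00000031700, chr8:85492576-85527560), the mitochondrial alanine aminotransferase, was at 136, 121, 126 and 131 FPKM in Ctrl+FF and at 167, 171, 196 and 224 in B2D+FF. Every B2D+FF mouse was above every Ctrl+FF mouse, and the log2 fold change was 0.55 ± 0.11 (SE, adjusted p = 0.0277). The call held only without B2D+FF 1 or B2D+FF 2 among the fits that left out 1 mouse, with adjusted p from 0.0520 to 0.0971 in the other 6. Without FF, Gpt2 was at 154, 129, 158, 140.4 and 136 FPKM in Ctrl and at 171, 167, 147, 224 and 169 in B2D, where B2D 3 lay within the Ctrl range (log2 fold change 0.28 ± 0.12, adjusted p = 0.256).

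Psat1 (ENSMUSG00000024640, chr19:15904678-15947337), an aminotransferase of serine synthesis, had the smallest adjusted p of the members. However, it reached the filter only through its higher B2D+FF level, and with no filter its adjusted p by limma was 0.0454. It was at 0.272, 0.0857, 0.365 and 0.333 FPKM in Ctrl+FF (6 to 27 reads) and at 1.64, 1.35, 0.875 and 0.883 in B2D+FF (77 to 119 reads). No B2D+FF mouse overlapped the Ctrl+FF range, with a ratio of means of 4.50 and a log2 fold change of 0.78 ± 0.13 (SE, adjusted p = 0.0156). Without Ctrl+FF 1 or Ctrl+FF 2 the adjusted p was 0.0515 or 0.0510. Without FF it was between 0.155 and 0.331 FPKM in all 10 mice and below the filter.

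The other steps of serine synthesis did not share this pattern. Phgdh, the first enzyme of the pathway, had at most 11 reads in any library and was below the filter. Psph, the last enzyme, ranged from 0.646 to 1.08 FPKM with FF (log2 fold change 0.04, adjusted p = 0.847) and was lower in sign without FF (-0.22 ± 0.10, adjusted p = 0.298). A stretch of 10.4% of the Psph exons lies opposite Cct6a, a far more abundant gene, and its reads cannot be told apart from those of Cct6a.

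In mitochondrial one-carbon metabolism, which takes up the carbon of serine, the members differed. Mthfd1l (ENSMUSG00000040675, chr10:3973118-4167081), which makes formate, was at 0.921, 0.589, 0.623 and 1.13 FPKM in Ctrl+FF and at 1.67, 1.42, 2.05 and 2.17 in B2D+FF. The groups did not overlap, with a ratio of means of 2.24 and a log2 fold change of 0.64 ± 0.13 (SE, adjusted p = 0.0245). The call was lost without any 1 of Ctrl+FF 1, 2 or 3 or B2D+FF 1 or 4 (adjusted p from 0.0521 to 0.0809). Without FF it was at 0.330 to 0.604 FPKM in Ctrl and 0.409 to 0.830 in B2D (log2 fold change 0.17 ± 0.10, adjusted p = 0.408).

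Shmt2 (ENSMUSG00000025403, chr10:127517123-127522444), the mitochondrial serine hydroxymethyltransferase, was at 68.4, 57.3, 62.4, 58.6 and 60.9 FPKM in Ctrl and at 54.4, 41.2, 43.1, 50.7 and 46.4 in B2D. All 5 B2D mice were below all 5 Ctrl mice, the only tested member separated in this direction without FF. The log2 fold change of -0.38 ± 0.10 (SE) did not pass (adjusted p = 0.0781), and passed in the fit of all 4 groups (adjusted p = 0.0167). With FF it was at 71.8, 66.2, 61.3 and 61.2 FPKM in Ctrl+FF and at 67.1, 60.6, 68.8 and 70.6 in B2D+FF, with a log2 fold change of 0.04 ± 0.09 (adjusted p = 0.861) whose sign turned under upper quartile scaling and quantile normalization. Mthfd2, its partner in the pathway, had at most 48 reads in any library and was below the filter.

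Asns (ENSMUSG00000029752, chr6:7675169-7693254), asparagine synthetase and a classical target of ATF4, was low in every group. It was at 0.267, 0.799, 0.556, 0.276 and 0.332 FPKM in Ctrl and at 1.65, 1.18, 0.667, 1.02 and 0.404 in B2D. With FF it was at 2.12, 0.333, 1.20 and 1.1 FPKM in Ctrl+FF and at 4.01, 1.42, 1.25 and 2.94 in B2D+FF. The diets overlapped in both experiments, and the log2 fold changes of 0.43 ± 0.17 (SE, adjusted p = 0.199) and 0.62 ± 0.31 (adjusted p = 0.283) did not pass. Aldh18a1 and Pycr1, both of proline synthesis, had at most 21 and 9 reads in any library and were below the filter in both experiments.

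**Figure D4:**
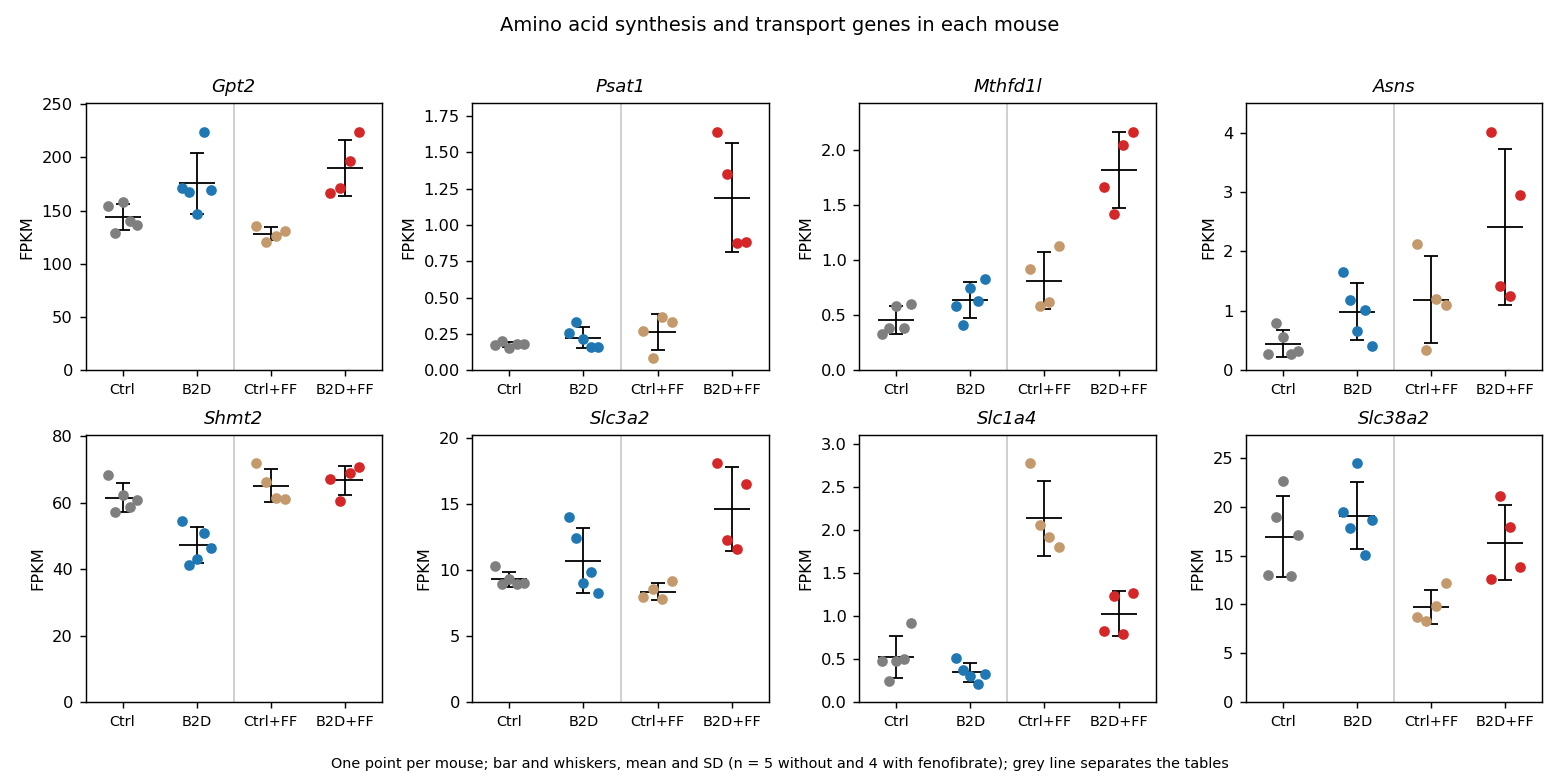
FPKM of 5 amino acid synthesis genes and 3 amino acid transporters in each mouse, with the mean and SD of each group. The grey line separates the experiments, which were normalized separately. All B2D+FF points of Gpt2, Psat1, Mthfd1l, Slc3a2 and Slc38a2 lie above the Ctrl+FF points, those of Slc1a4 lie below them, and all B2D points of Shmt2 lie below the Ctrl points.

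Among amino acid transport and tRNA export genes, none passed without FF. With FF, Slc3a2 was higher and Slc1a4 lower, so that transporters moved in both directions. The summed level of the 7 genes was 40.0 to 49.5 FPKM in Ctrl, 45.4 to 61.1 in B2D, 33.7 to 38.7 in Ctrl+FF and 48.2 to 54.8 in B2D+FF.

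Slc3a2 (ENSMUSG00000010095, chr19:8706882-8723369), the heavy chain that carries several amino acid exchangers to the cell surface, was at 7.94, 8.56, 7.79 and 9.15 FPKM in Ctrl+FF and at 18.1, 12.3, 11.6 and 16.5 in B2D+FF. The groups did not overlap, with a ratio of means of 1.75 and a log2 fold change of 0.72 ± 0.14 (SE, adjusted p = 0.0239). The call was lost without any 1 of Ctrl+FF 1, 2 or 3 or B2D+FF 4 (adjusted p from 0.0647 to 0.0793). Without FF, Slc3a2 was at 10.3, 8.90, 9.32, 8.97 and 9.02 FPKM in Ctrl and at 14.0, 12.4, 8.99, 9.85 and 8.27 in B2D, with only B2D 1 and 2 above the Ctrl range (log2 fold change 0.16 ± 0.13, adjusted p = 0.534).

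The light chains among the members, Slc7a5 and Slc7a11, were far lower. Slc7a5, which imports leucine, was between 0.394 and 0.98 FPKM in Ctrl and 0.639 and 1.43 in B2D (log2 fold change 0.20 ± 0.14, adjusted p = 0.454), and below the filter with FF, at 0.143 to 0.730. Slc7a11, the cystine importer, had at most 2 reads in any library. The separate arginine and lysine importer Slc7a1 had at most 50 reads and was below the filter in both experiments.

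Slc1a4 (ENSMUSG00000020142, chr11:20302180-20332713), which carries alanine, serine and cysteine, was at 2.78, 2.06, 1.92 and 1.80 FPKM in Ctrl+FF and at 0.822, 1.24, 0.788 and 1.27 in B2D+FF. Every B2D+FF mouse was below every Ctrl+FF mouse, with 55 to 102 reads per library against 120 to 179, and the log2 fold change was -0.63 ± 0.12 (SE, adjusted p = 0.0246). The call was lost without any 1 of Ctrl+FF 1, 2 or 3 or B2D+FF 1 (adjusted p from 0.0546 to 0.0754). Without FF, Slc1a4 was at 0.472, 0.249, 0.478, 0.501 and 0.926 FPKM in Ctrl and at 0.512, 0.373, 0.305, 0.210 and 0.322 in B2D, below the filter and overlapping.

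Slc38a2 (ENSMUSG00000022462, chr15:96687392-96699730), the SNAT2 transporter of small neutral amino acids, was at 8.67, 8.33, 9.80 and 12.1 FPKM in Ctrl+FF and at 12.6, 21.1, 17.9 and 13.8 in B2D+FF. The groups did not overlap, and the log2 fold change of 0.68 ± 0.17 (SE) did not pass (adjusted p = 0.0567). It passed without Ctrl+FF 4 (adjusted p = 0.0472) or B2D+FF 1 (adjusted p = 0.0495), on recovered reads (adjusted p = 0.0257) and with a filter of 5 FPKM (adjusted p = 0.0336). Without FF it was at 12.9 to 22.7 FPKM in Ctrl and 15.0 to 24.4 in B2D.

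Xpot (ENSMUSG00000034667, chr10:121587380-121626332), which exports tRNA from the nucleus, was at 14.8, 15.1, 13.8 and 15.5 FPKM in Ctrl+FF and at 16.7, 19.7, 17.1 and 17.1 in B2D+FF. The groups did not overlap, and the log2 fold change of 0.24 ± 0.08 (SE) did not pass (adjusted p = 0.131). Without FF it was at 15.8 to 20.9 FPKM in Ctrl and 17.4 to 25.7 in B2D (adjusted p = 0.412).

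A contrast over all 18 mice, with each diet effect taken within its own table, asked whether the effect of B2D differed with FF. None of 24 tested members passed by limma, nor by limma voom on recovered reads, while 0.228% of 11862 genes passed. At an unadjusted p under 0.05 there were 7 members, as were 11.9% of all genes. Their differences (B2D effect with FF minus that without) were 1.04 ± 0.25 (SE) for Chac1, 0.62 ± 0.21 for Stbd1, 0.55 ± 0.20 for Slc3a2, 0.47 ± 0.16 for Mthfd1l, 0.42 ± 0.13 for Shmt2, 0.41 ± 0.18 for Atf4 and -0.46 ± 0.17 for Slc1a4, with adjusted p from 0.0845 for Chac1 to 0.382 for Atf4. The median difference of the 24 members was 0.33, beside 0.013 over all genes tested. Psat1 was below the filter in this contrast and was not tested there, and with no filter its difference was 0.73 ± 0.13 (SE, adjusted p = 0.0544).

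Control levels stood far apart between the experiments for some members, which is given side by side without a test because each table was scaled on its own. Mean FPKM was 153 in Ctrl and 64.7 in Ctrl+FF for Atf5, 0.369 and 4.55 for Vldlr, 0.525 and 2.14 for Slc1a4, and 2.19 and 5.05 for Sesn2.

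Lists of genes around the pathway were set beside the members. Over all genes tested, 18.4% without and 21.2% with FF had an unadjusted p under 0.05, and 2.70% and 4.45% passed. Of 17 genes for eIF2α kinases, eIF2, eIF2B and their regulators, none passed in either experiment, with 1 and 4 at an unadjusted p under 0.05 and medians of 0.045 without and 0.14 with FF. Eif2ak4, which encodes the amino acid sensor GCN2, averaged 1.11 FPKM in Ctrl and 1.19 in B2D, and 1.23 in Ctrl+FF and 1.23 in B2D+FF. Eif2s1, which encodes eIF2α itself, averaged 9.53 and 10.1, and 9.86 and 11.6.

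Of 20 tested genes among other known ATF4 targets, none passed without FF (3 at an unadjusted p under 0.05, beside 18.4% of all genes). With FF 5 passed, all higher, beside 2.24% of all genes that passed higher. The list medians were 0.12 without and 0.18 with FF, with 13 and 16 of the 20 above 0. Fgf21, the fasting and stress hormone, was at 1.28, 3.83, 1.09 and 4.10 FPKM in Ctrl+FF and at 11.3, 17.3, 12.4 and 37.9 in B2D+FF. All B2D+FF mice were above all Ctrl+FF mice, with a log2 fold change of 2.49 ± 0.41 (SE, adjusted p = 0.0137). This call held without any 1 mouse. Without FF, Fgf21 averaged 15.0 FPKM in Ctrl and 21.1 in B2D (adjusted p = 0.314).

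Got1, the cytosolic aspartate aminotransferase, averaged 126 FPKM in the Ctrl+FF mice and 309 in those on B2D+FF, with a log2 fold change of 1.31 ± 0.23 (SE, adjusted p = 0.0179). The seryl-tRNA synthetase Sars had a log2 fold change of 0.43 ± 0.08 (SE, adjusted p = 0.0191). The glycyl-tRNA synthetase Gars and the bZIP factor Jdp2 were the other genes that passed. Jdp2, whose mean was 0.359 FPKM with Ctrl+FF against 0.925 with B2D+FF, passed the filter only through its B2D+FF level. Gdf15, a stress hormone, averaged 3.71 FPKM in the Ctrl+FF mice and 14.7 in the B2D+FF mice, with overlap (adjusted p = 0.113).

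ER chaperones and genes of the other arms of the unfolded protein response, which share inputs with the ISR, gave none past the threshold among 16 in either experiment, with 2 and 5 at an unadjusted p under 0.05 and medians of -0.094 and -0.067. PPARα targets gave none among 14, with 6 and 0 at an unadjusted p under 0.05. In each experiment 10 of the 14 lay above 0, with medians of 0.20 without and 0.21 with FF. Their summed level was 10345 to 14291 FPKM in Ctrl and 12648 to 18798 in B2D. With FF it was 22014 to 27908 in Ctrl+FF and 20638 to 34310 in B2D+FF.

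Immediate-early genes, which respond within minutes to many stimuli including tissue handling, gave 3 past the threshold among 10 tested with FF, Klf6, Btg2 and Junb, all higher in B2D+FF. All 10 lay above 0, with a median of 1.03, but Fos, Fosb, Egr1 and Ier3 passed the filter only through their B2D+FF level, so the shared sign and the median support nothing. Their summed level was 29.3 to 40.6 FPKM in Ctrl+FF and 55.1, 157, 61.1 and 62.8 in the 4 B2D+FF mice. B2D+FF 2 stood far above the other mice with FF. Among tested members it was the highest B2D+FF mouse for Atf3, Atf4, Ddit3, Cebpb, Ppp1r15a, Stbd1, Psph, Slc38a2 and Xpot. It was the lowest for Atf5, Cebpg, Trib3, Eif4ebp1, Sesn2, Ddit4, Vldlr, Shmt2 and Mthfd1l. Without this mouse, 8 members passed with FF, among them Trib3, Psat1, Gpt2, Mthfd1l, Slc3a2 and Slc1a4, and Atf3 remained short of the threshold. Without FF none of 9 tested immediate-early genes passed, with 1 at an unadjusted p under 0.05. The summed level of the list was then 44.8 to 58.6 FPKM in Ctrl. In the B2D mice it was 68.7, 71.3, 64.5, 38.0 and 132.8, so that B2D 5 stood far above the others. The part of this list in the levels of the members was not tested.

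**Figure D5:**
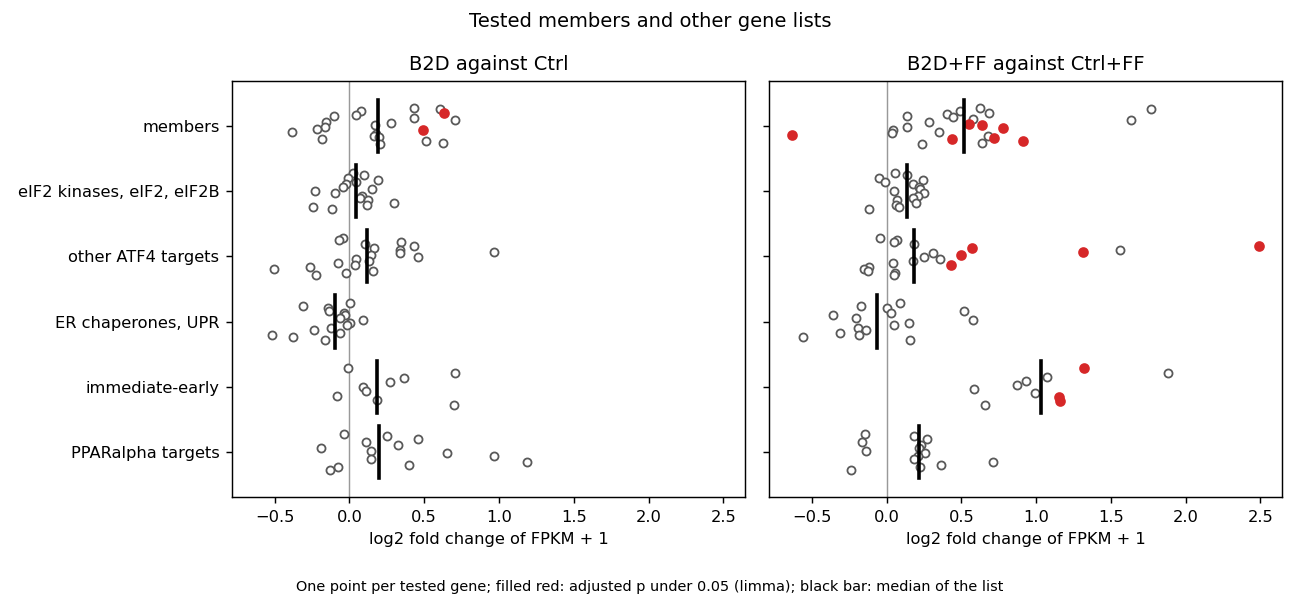
Log2 fold change of FPKM + 1 between the diets for each tested gene of the members and of 5 other lists, without FF (left) and with FF (right). Filled points passed an adjusted p of 0.05 and black bars are medians. With FF, the bars of the members (0.52) and of the immediate-early genes (1.03) lie right of those of the other lists, where both lists hold genes that passed the filter only through their B2D+FF level (Atf3 and Psat1, and Fos, Fosb, Egr1 and Ier3), and without FF all bars lie between -0.094 and 0.20.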

How the data were processed

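Liver mRNA libraries of the 18 mice were prepared with a kit that does not mark strand and sequenced by the authors, who used STAR with the mouse genome mm10, featureCounts and DESeq2. The authors deposited 1 table per experiment of FPKM values (called RPKM in the methods) with GRCm38 coordinates. Multiplied by gene length, the values of a library were whole multiples (within 0.05) of 1 unit, from which reads were recovered, and the scaling matched median-of-ratios size factors in each table. No column belonged to an unlisted sample.

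FPKM values were used as deposited. Since FPKM are not counts, genes with a mean of at least 0.5 FPKM were tested by limma 3.58.1 (R 4.3.3, trended moderation) on log2(FPKM + 1), each table alone, with Benjamini-Hochberg adjustment and a threshold of 0.05. The difference between experiments was a contrast over 18 libraries. Figures were drawn with Python 3.11.15 and matplotlib 3.10.9. Scripts were tested on simulated data. The members and the 14 other lists were chosen with earlier results of these data known. Values of single mice are given for members past the threshold, for Atf4, Ddit3 and Asns and for members whose groups did not overlap, and the other members by range. From other lists, up to 3 genes past the threshold with the smallest adjusted p were named, with Fgf21, Gdf15, Eif2ak4 and Eif2s1, and 1 further gene of this rule is not reported here. Jdp2 and Gars, beyond this rule, were named after their values were seen, as were Adipoq, Lyve1, Alb, Ttr and Serpina3k. The marker Tf was not matched by symbol. The ± values are moderated standard errors from limma, and no protein sequences were used here.

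Alternatives were 0.1 FPKM added in place of 1, no filter or a mean of 5 FPKM, scaling to the upper quartile (percentile 75), quantile normalization, voom on the recovered reads, 1 fit of all 4 groups, and each library left out in turn.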

Additional observations from a re-analysis of the deposited data

Results flagged for a closer look

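In each group of 4 or 5 mice, the gap between an extreme mouse and its nearest neighbour was compared with the group's range by Dixon's 95% limit, which chance passes in about 1 in 20 groups. Of 92 groups of members, 6 passed. Cebpg was at 8.39 FPKM in Ctrl 1 and between 10.4 and 11 in the other Ctrl mice. Ppp1r15a was at 1.94 FPKM in B2D+FF 4 and between 4.38 and 4.49 in the other B2D+FF mice. Vldlr was at 0.760 FPKM in Ctrl 5 against 0.229 to 0.38 in the other Ctrl mice, and at 2.05 in B2D 4 against 0.820 to 1.01 in the other B2D mice. Psph was at 1.13 FPKM in Ctrl 2 against 0.688 to 0.762 in the others. Xpot was at 19.7 FPKM in B2D+FF 2 against 16.7 to 17.1 in the others.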

How the results depend on the processing

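No paired analysis was possible because the mice of different groups were separate animals whose labels share no replicate number. Without FF, the number of members past the threshold was 2 as reported, 0 with no filter on low values, 1 with a mean of at least 5 FPKM (Atf5) and 1 under quantile normalization (Atf5), and 0 to 2 with 1 mouse left out. It was 3 in 1 fit of all 4 groups, but these were Vldlr, Shmt2 and Chac1. With FF it was 7 as reported, 2 with no filter (Trib3 and Psat1), 6 to 9 under the other settings, and 0 to 8 with 1 mouse left out. The members that passed also changed with the setting. In 1 fit of all 4 groups by limma, Ddit4 passed (adjusted p = 0.0403), Stbd1 did not (adjusted p = 0.137) and Psat1 was below the filter. With a mean of at least 5 FPKM, Psat1, Mthfd1l and Slc1a4 were not tested and Slc38a2 passed. No filter adds more genes to the adjustment (25041 against 11574 without FF and 24746 against 11878 with FF). The median log2 fold change of the members moved beyond the spread between mice only with no filter, to 0.063 without FF and 0.38 with FF, where the low members enter. It was 0.13 to 0.23 and 0.46 to 0.58 with 1 mouse left out. The difference between experiments called no member under any setting, with a median of 0.29 to 0.38 with 1 mouse left out. The fold change of Shmt2 with FF reversed to -0.024 under upper quartile scaling and to -0.0027 under quantile normalization. No other fold change reversed among the members with values of single mice. With 1 mouse left out, 3 fold changes of other members took both signs. These were Cebpb (-0.159 to 0.189) and Cebpg (-0.258 to 0.037) without FF, and Psph (-0.016 to 0.092) with FF. Depth limits Chac1, Psat1, Slc1a4, Asns, Mthfd1l, Ddit3, Psph and Slc7a5, among others, with under 200 reads per library. Folds were given for Atf3 and Chac1 although Atf3 had 2 reads in Ctrl+FF 1 and Chac1 had 0 in B2D 3. No fold was given for the other members with 3 or fewer reads in a library.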
